A study of Cavia porcellus with 24 samples.

Results

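The PHLDB1, IRF2BPL and MDGA1 loci held 521 cytosines of the 3233055 that were listed for the hippocampus or the whole blood of guinea pigs, with 300 cytosines at PHLDB1, 157 at IRF2BPL and 64 at MDGA1. The loci were chosen from measured values. The study listed cytosines that were differentially methylated after prenatal exposure to synthetic glucocorticoid (sGC) in both tissues, and named these genes at 23 of them, all on the minus strand. Each locus runs from the first to the last site named for the gene, with 2 kb added on each side and both strands taken in. In total 47 of the 521 cytosines were on that list, 25 at PHLDB1, 14 at IRF2BPL and 8 at MDGA1, and 473 cytosines were measured in both tissues. Since the contrast of sGC with saline chose the loci, its values are given here as a description. The contrasts between tissues and between strands were not used for the choice and were tested. The tissue contrast is made from the same reads as the sGC contrast, however, so its counts are not free of the choice.

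The animals were female Hartley guinea pigs sampled on postnatal day 14, 1 from each litter. Mothers of the sGC group received betamethasone at 1 mg/kg in 3 courses (gestational days 40/41, 50/51 and 60/61), and mothers of the control group received saline on these days. Both tissues came from the same 6 animals in each group, which gives 4 groups of 6 samples. DNA methylation was measured by reduced representation bisulfite sequencing (RRBS), which reads CpG-rich fragments after bisulfite has converted unmethylated cytosines. The deposited values are reads summed over the 6 animals of a group, called a pool here, so that each cytosine has 1 methylation percentage per tissue and group and the spread between animals is not known. Ranges in parentheses after a percentage are 95% Wilson intervals, and these cover only the error of counting reads. For a cluster they take every reading as independent, so they are too narrow where a read covers several cytosines. Hippocampus and whole blood are mixtures of cells, and a change within cells cannot be told apart from a change in the mix of cells. The tissue labels were not checked against marker genes here, since the tables hold neither expression nor gene names.

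Methylation of CpG sites is copied to both strands when DNA replicates, and long stretches dense in CpGs often stay unmethylated while the DNA around them is methylated. Regions whose methylation differs between tissues are commonly linked to cell identity. PHLDB1 encodes a pleckstrin homology domain protein of the cell cortex. IRF2BPL encodes a nuclear regulator of transcription whose loss causes a neurodevelopmental disorder in children. MDGA1 encodes a membrane-anchored immunoglobulin protein that binds neuroligins and restrains the formation of inhibitory synapses.

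On the build cavPor3, with positions as in the deposited tables, the PHLDB1 locus spans 28691 bp of scaffold DS562874.1 from 29416976 to 29445666. The IRF2BPL locus spans 4061 bp of DS562875.1 from 20877714 to 20881774, and the MDGA1 locus spans 4070 bp of DS562870.1 from 34676613 to 34680682. Exons, introns and untranslated regions were not assigned, because an annotation of this build was not used here. A separate RefSeq gene table lists each gene once as protein-coding (Phldb1, gene 100724028; Irf2bpl, gene 100716834; Mdga1, gene 100720991). RRBS reads only fragments at MspI sites, so the cytosines came in groups, and a run of cytosines with no gap above 200 bp was called a cluster. There were 18 clusters at PHLDB1, 3 at IRF2BPL and 4 at MDGA1. The cluster with the most listed sites is called the main cluster of its locus, and it held 24 of the 25 listed sites at PHLDB1, all 14 at IRF2BPL and all 8 at MDGA1.

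The median cytosine of these loci had 106 reads with sGC and 98 with saline in hippocampus, and 107 with sGC and 90 with saline in blood, and the smallest number was 10 reads. Neighboring cytosines on a strand were often read by the same fragments and are not independent of each other. The tables list no cytosine that was unmethylated in both pools of a tissue, and none that was fully methylated in both, so the level of a nearly unmethylated cluster is slightly overstated and that of a nearly fully methylated cluster understated.

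The main cluster of PHLDB1 was mostly methylated in blood and less so in hippocampus. It holds 57 cytosines over 672 bp, from 29418916 to 29419587. Over all its readings, methylation was 40.7% (39.5 to 41.9) in the sGC hippocampus and 31.8% (30.6 to 33.0) in the saline hippocampus. In blood it was 86.6% (85.8 to 87.5) with sGC and 79.6% (78.5 to 80.7) with saline. From lowest to highest, the order of the pools was saline hippocampus, sGC hippocampus, saline blood, sGC blood. Whether the pools differ beyond the spread between animals was not tested.

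The main cluster of IRF2BPL was mostly methylated in blood and mostly unmethylated in hippocampus. It holds 71 cytosines over 805 bp, from 20879665 to 20880469. Methylation was 19.2% (18.3 to 20.2) in the sGC hippocampus and 11.8% (11.1 to 12.6) in the saline hippocampus, against 83.1% (82.3 to 84.0) in the sGC blood and 73.6% (72.4 to 74.7) in the saline blood. The MDGA1 main cluster, with 20 cytosines over 521 bp from 34678162 to 34678682, had the same order of the pools. Its methylation was 31.2% (29.3 to 33.2) in the sGC hippocampus, 20.9% (19.3 to 22.6) in the saline hippocampus, 92.2% (91.0 to 93.3) in the sGC blood and 82.1% (80.2 to 83.9) in the saline blood.

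**Figure D1:**
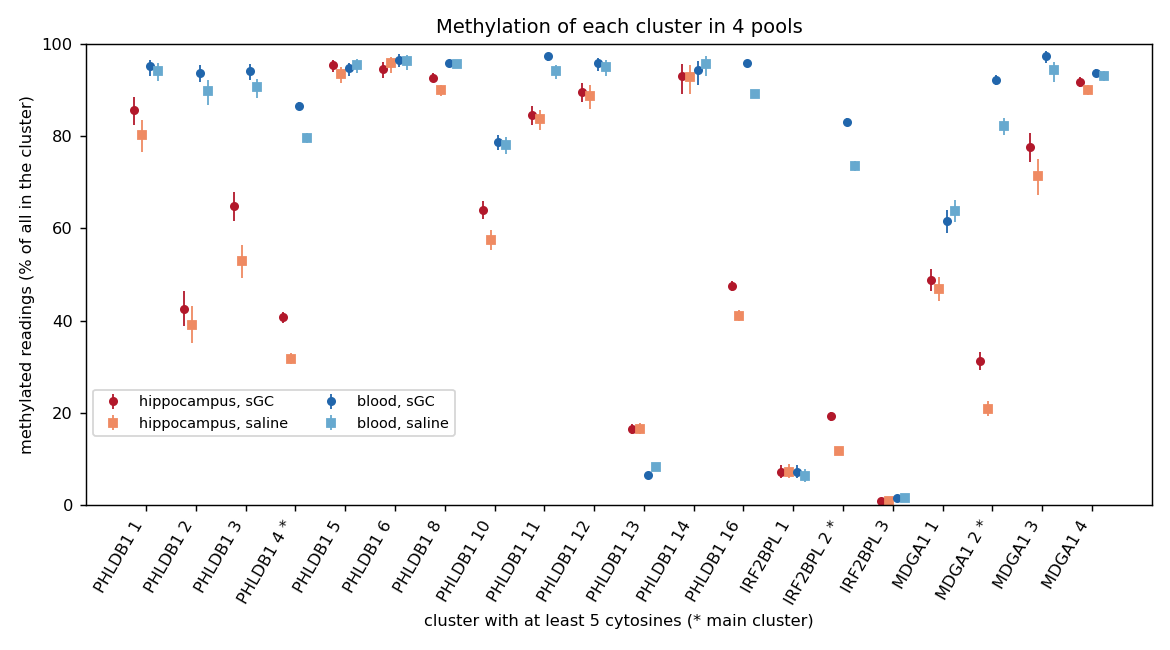
Methylation of each cluster with at least 5 cytosines in the 4 pools, as the percentage of methylated readings among all readings of the cluster (vertical axis), with 95% Wilson intervals for the counting of reads. In the main clusters, marked with an asterisk, blood lies far above hippocampus (83.1% against 19.2% with sGC at IRF2BPL), whereas PHLDB1 cluster 13 has blood below hippocampus and IRF2BPL clusters 1 and 3 are low in all pools.

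The difference between the tissues was tested at each cytosine within the saline pools and again within the sGC pools, by a two-sided Fisher's exact test with Benjamini-Hochberg adjustment over all 2564116 cytosines measured in both tissues. For a call, the tissues had to differ by 10 percentage points or more, with an adjusted p below 0.05. The test compares pools of reads, not animals. In the saline pools, 265 of the 473 cytosines of the loci were called higher in blood and 6 lower, whereas among all 2564116 cytosines 15.3% were called higher and 4.43% lower. In the sGC pools, 253 were called higher in blood and 10 lower, against 15.6% and 5.01% of all cytosines. In both groups, the share of cytosines higher in blood was above the background and the share lower was below it. Of the cytosines of the loci, 243 were called in both groups. Over all cytosines, a higher value in blood went with a higher value with sGC, as given below. Loci chosen by the sGC contrast may thus hold more such cytosines through the choice, and this was not tested.

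Most of these calls fell in the main clusters and in a few clusters like them. At PHLDB1, 47 of the 57 cytosines of the main cluster were called higher in blood in the saline pools and 45 in the sGC pools, and 44 in both. At IRF2BPL, all 70 main-cluster cytosines measured in both tissues were called higher in blood, in both groups. At MDGA1, 19 of 20 were called with saline and 20 of 20 with sGC. The median difference of blood less hippocampus in the saline pools was 48.8 percentage points in the PHLDB1 main cluster, 63.8 in that of IRF2BPL and 60.6 in that of MDGA1. Over all cytosines the median was 1.64 points, and differences of at least the size of these medians were found at 3.09%, 0.898% and 1.24% of the table. With sGC, the medians were 48.8, 66.5 and 61.7 points, reached by 2.96%, 0.668% and 1.10% of all cytosines, whose median was 1.35 points.

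The cytosine with the widest separation of the tissues at IRF2BPL in the saline pools was 20879987 on the minus strand. It was methylated in 11 of 86 reads in the sGC hippocampus (12.8%) and 4 of 82 in the saline hippocampus (4.88%), against 86 of 95 in the sGC blood (90.5%) and 49 of 53 in the saline blood (92.5%). Blood exceeded hippocampus there by 87.6 points in the saline pools (adjusted p = 7.5e-25, Fisher's exact test) and by 77.7 points in the sGC pools (adjusted p = 4.4e-26). Not every cytosine of the cluster was so high in blood. At 20880176 on the minus strand, blood reached only 16.7% with sGC and 19.6% with saline while hippocampus was at 1.85% and 1.49%, and this was the smallest tissue difference in the cluster in both groups.

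**Figure D2:**
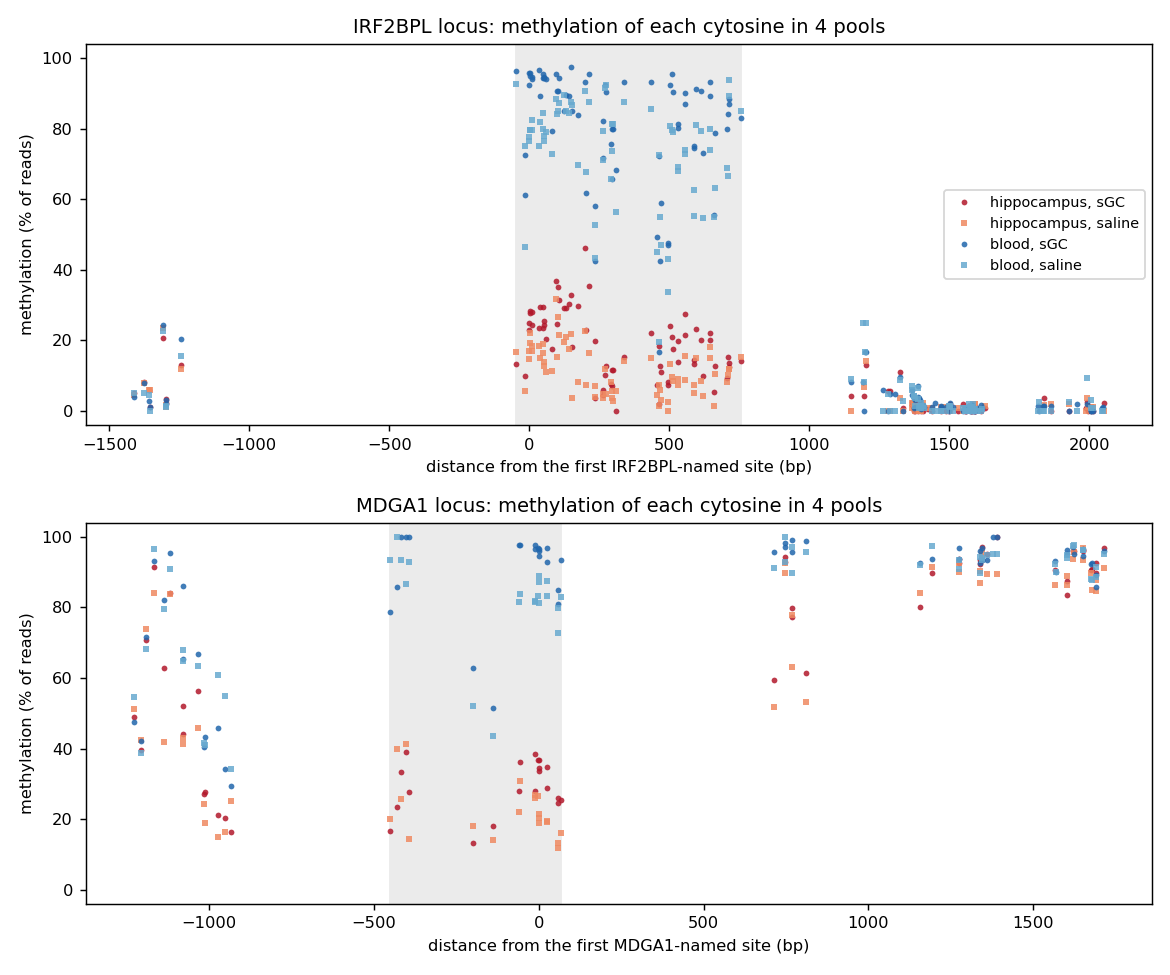
Methylation (percentage of reads, vertical axis) of each cytosine of the IRF2BPL and MDGA1 loci against its distance in bp from the first site named for the gene, in 4 pools, with the main cluster shaded. In the shaded IRF2BPL cluster the blood pools have medians of 88.3% with sGC and 79.0% with saline and the hippocampal pools 19.7% and 11.3%, whereas the clusters on either side are low in every pool.

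The IRF2BPL main cluster was flanked by DNA with little methylation in either tissue. Cluster 1, from 20878302 to 20878470 with 8 cytosines, had 7.17% and 7.29% in the sGC and saline hippocampus and 7.14% and 6.22% in the sGC and saline blood. Cluster 3, from 20880865 to 20881767, had 78 cytosines, of which 54 were measured in hippocampus and 67 in blood. Its values over these different sets were 0.839% and 0.959% in hippocampus and 1.63% and 1.67% in blood. None of the 51 cytosines measured in both tissues in these clusters was called different between the tissues in either group. The shift from a strongly to a weakly methylated cluster in blood occurred between 20880469, with 83.0% in the sGC pool, and 20880865.

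The MDGA1 locus did not have such unmethylated flanks. Cluster 1, from 34677386 to 34677679, was at 48.8% in the sGC hippocampus and 46.8% in the saline hippocampus, and at 61.5% and 63.8% in blood. Of its 14 cytosines, 7 were called higher in blood with saline and 4 with sGC. Cluster 3, from 34679327 to 34679424, was at 77.7% and 71.4% in hippocampus and 97.5% and 94.3% in blood, with 5 and 4 of its 6 cytosines called. Cluster 4, from 34679770 to 34680327, was above 90% in all pools, from 90.1% in the saline hippocampus to 93.8% in the sGC blood, and 0 and 2 of its cytosines were called.

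At PHLDB1 the tissue difference took several forms along the 28691 bp. Cluster 16, at the far end of the locus, was like the main cluster, with 66 cytosines from 29442999 to 29443920 at 47.5% and 41.1% in the sGC and saline hippocampus and 96.0% and 89.3% in blood. Of its 65 cytosines measured in both tissues, 65 were called higher in blood with saline and 64 with sGC. The 7 cytosines of cluster 2 (42.6% and 39.1% in hippocampus, 93.8% and 89.8% in blood) and the 3 of cluster 17 (31.5% and 24.8%, 92.3% and 83.1%) were called higher in blood in both groups as well. The cytosine with the most reads in cluster 15 was 29440066 on the minus strand, with 114 of 259 reads methylated in the sGC hippocampus (44.0%), 62 of 187 in the saline hippocampus (33.2%), 243 of 249 in the sGC blood (97.6%) and 204 of 223 in the saline blood (91.5%). Its tissue difference was 58.3 points with saline (adjusted p = 3.4e-34, Fisher's exact test) and 53.6 points with sGC (adjusted p = 3.5e-43).

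PHLDB1 cluster 13 went the other way. Its 45 cytosines, from 29436537 to 29437141, were all measured in hippocampus and 39 of them in blood. Methylation was 16.5% (15.5 to 17.7) in the sGC hippocampus and 16.6% (15.5 to 17.8) in the saline hippocampus. In blood it was 6.48% (5.81 to 7.21) with sGC and 8.36% (7.54 to 9.26) with saline. Cluster 13 held all of the cytosines of the loci called lower in blood, 6 with saline and 10 with sGC, of which 4 were called in both. Of its 39 cytosines measured in both tissues, 33 were not called with saline and 29 were not called with sGC. Clusters 5, 6, 8, 12 and 14 were highly methylated in both tissues, from 88.7% in the saline hippocampus of cluster 12 to 96.6% in the sGC blood of cluster 6. Cluster 10 was intermediate in hippocampus, at 64.0% with sGC and 57.5% with saline, and less complete in blood than most others, at 78.7% and 78.1%.

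**Figure D3:**
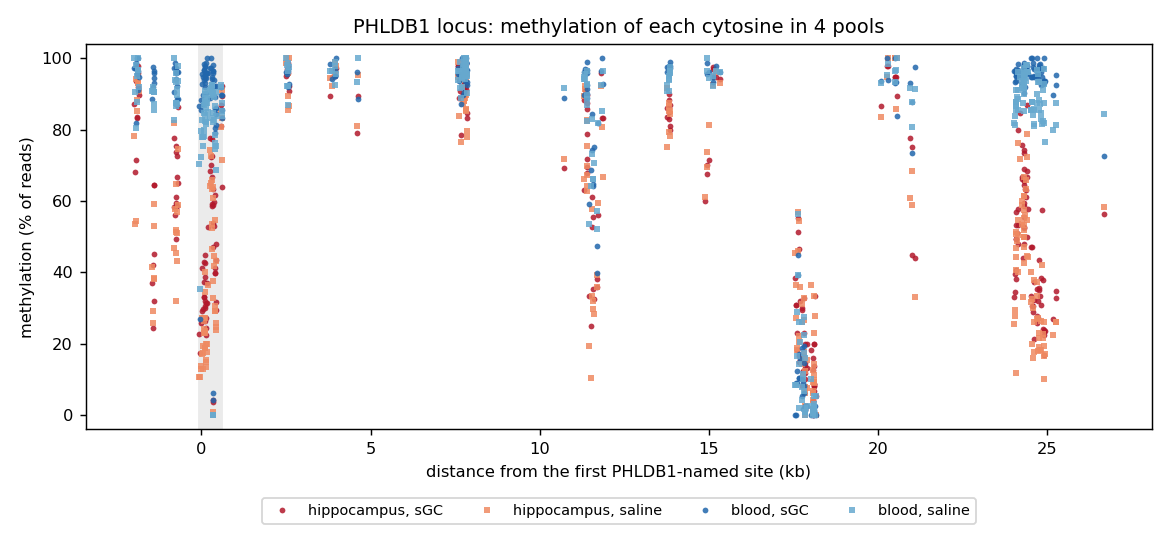
Methylation (percentage of reads, vertical axis) of each cytosine of the PHLDB1 locus in 4 pools against its distance in kb from the first site named for the gene, with the main cluster shaded. Blood is high at nearly every cluster except cluster 13, right of the middle, where it is at 6.48% with sGC and 8.36% with saline, and hippocampus is intermediate at the main cluster and at cluster 16, the wide group toward the right end.

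Within the PHLDB1 main cluster, hippocampal methylation differed between cytosines, from 3.65% to 92.1% with sGC and from 0.0% to 91.2% with saline. At the listed site 29418976 on the minus strand, 36 of 139 reads were methylated in the sGC hippocampus (25.9%) and 18 of 139 in the saline hippocampus (12.9%). Toward the far end, 29419557 on the minus strand had 116 of 143 reads (81.1%) and 79 of 98 reads (80.6%). Blood was at 88.4% with sGC and 79.6% with saline at the first of these sites, and at 92.1% and 91.9% at the second. The tissue difference was therefore 66.6 points with saline at 29418976 (adjusted p = 9.3e-24, Fisher's exact test) and 11.3 points at 29419557, which was not called (adjusted p = 0.072).

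A single CpG of the PHLDB1 main cluster stood apart from its neighbors in both tissues. At 29419327 on the plus strand, 8 of 183 reads were methylated in the sGC hippocampus (4.37%), 0 of 158 in the saline hippocampus, 7 of 168 in the sGC blood (4.17%) and 0 of 133 in the saline blood. Its minus-strand partner at 29419328 had 5 of 137 reads (3.65%), 1 of 130 (0.769%), 9 of 145 (6.21%) and 0 of 92. The CpG directly before it, at 29419325 on the plus strand, was methylated at 53.8% and 32.9% in hippocampus and 95.8% and 82.1% in blood. The low values thus appeared on both strands and in all 4 pools, at about as many reads as the highly methylated neighbor had, and all but 1 of the methylated reads were in the sGC pools. A thymine in place of a cytosine on either strand can be counted as unmethylated in bisulfite reads. These percentages may therefore not be methylation levels, and the sequence of the animals was not examined. The cause was not tested. The site 29418920 on the plus strand was also lower than its neighbors, with 24 of 138 and 14 of 130 reads in hippocampus (17.4% and 10.8%) and 30 of 111 and 31 of 88 in blood (27.0% and 35.2%). In blood, 29418916, which lies 4 bp before it on this strand, was at 86.5% and 70.5%.

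The listed sites were chosen for a difference between sGC and saline in either direction, and most of them were more methylated with sGC. In the hippocampus, the mean difference of sGC less saline over listed sites was 10.6 points (SD over cytosines 5.35) at PHLDB1, 9.23 (SD 2.55) at IRF2BPL and 12.6 (SD 3.02) at MDGA1. In blood these means were 10.9 (SD 5.52), 13.8 (SD 3.72) and 10.2 (SD 3.72). The sGC value was above the saline value in both tissues at 23 of 25 listed sites at PHLDB1, 14 of 14 at IRF2BPL and 8 of 8 at MDGA1.

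Listed sites were found on both strands. At IRF2BPL, listed plus-strand sites differed by 8.10 points in hippocampus and 13.0 in blood and listed minus-strand sites by 10.4 and 14.5. At MDGA1, the plus-strand sites differed by 12.7 in hippocampus and 12.7 in blood, and the minus-strand sites by 12.5 and 7.69. At the first listed MDGA1 site, 34678612 on the plus strand, 70 of 190 reads were methylated in the sGC hippocampus (36.8%) and 58 of 219 in the saline hippocampus (26.5%), against 192 of 198 in the sGC blood (97.0%) and 133 of 160 in the saline blood (83.1%). At the listed IRF2BPL site with the most reads, 20880216 on the plus strand, the counts were 44 of 183 (24.0%), 25 of 189 (13.2%), 181 of 196 (92.3%) and 127 of 157 (80.9%).

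The 2 exceptions among the listed sites were both at PHLDB1. The site 29418920 was higher with sGC by 6.62 points in hippocampus and differed by -8.20 points in blood. The site 29443666 on the minus strand, the single listed site of cluster 16 and the one that sets the far end of the locus, was methylated in 41 of 148 reads in the sGC hippocampus (27.7%) and 44 of 118 in the saline hippocampus (37.3%), a difference of -9.59 points. In blood it was methylated in 147 of 147 reads with sGC (100.0%) and 99 of 110 with saline (90.0%). Its nearest minus-strand neighbor, 29443606, had the same signs, with 21.3% and 37.9% in hippocampus and 94.9% and 81.5% in blood. In cluster 16 as a whole, sGC was above saline in hippocampus at 55 of 66 cytosines.

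Unlisted cytosines of the main clusters differed in the same direction by smaller means. At PHLDB1, the 33 unlisted cytosines of the main cluster averaged 6.82 points (SD 6.33) in hippocampus and 4.90 (SD 4.45) in blood. At IRF2BPL, the unlisted cytosines averaged 6.82 (SD 6.01, over 56) in hippocampus and 6.36 (SD 8.65, over 57) in blood, and at MDGA1, the 12 unlisted cytosines averaged 3.09 (SD 8.80) and 6.84 (SD 10.7). Of those at MDGA1, the 5 farthest from the listed sites had only 14 to 18 reads in the sGC pools. Outside the main clusters, the means were 3.64 in hippocampus and 1.80 in blood at PHLDB1, 0.0943 and -0.213 at IRF2BPL, and 3.40 and 0.663 at MDGA1. Listed sites were chosen for their differences and main clusters for holding listed sites, and neighbors share fragments with them. The order of these means is therefore not evidence about the loci.

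Summed over whole main clusters, sGC exceeded saline by 8.91 points in hippocampus and 7.03 in blood at PHLDB1, by 7.40 and 9.59 at IRF2BPL and by 10.3 and 10.1 at MDGA1. The MDGA1 sums do not stand for the whole gene. The paper reports further differentially methylated MDGA1 sites in blood, and its average difference over all of them is negative. The strands read separately gave 10.2 and 7.79 points for the plus and minus strand in hippocampus at PHLDB1, and 7.70 and 6.34 in blood. At IRF2BPL they gave 6.47 and 8.70 in hippocampus and 10.7 and 8.24 in blood. These cluster sums depend on where a cluster ends, since the IRF2BPL value in hippocampus was 4.19 when clusters were joined over gaps of up to 500 bp and cluster 3 was taken in.

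By the Fisher test of sGC against saline, with a call at an adjusted p below 0.05 and at least 5 points, 0 of the 493 cytosines measured in hippocampus were called in either direction, with 79 at an unadjusted p below 0.05. Among all cytosines listed for hippocampus, 0.0729% were called higher with sGC and 0.0391% lower. A chi-square test divided by its genome-wide inflation factor of 1.76 also called 0, and 4 were called when the strands of a CpG were added together. In blood, 19 of 501 cytosines were called higher and 0 lower, with 114 at an unadjusted p below 0.05, beside 0.192% and 0.125% of all those listed for blood. Of the 19, 9 were at PHLDB1, 6 at IRF2BPL and 4 at MDGA1, and 0 were called by a chi-square test divided by its inflation factor of 1.73. Listed sites made up only 3 of the calls in blood at PHLDB1, 2 at IRF2BPL and 3 at MDGA1. The study used MethPipe with batch as a covariate and called all listed sites in both tissues. The test on pools, a different method, did not call most of them, and which calls are right was not tested. As the loci were chosen by this contrast, the counts are not evidence about them.

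Among the cytosines called in blood, the one with the most reads was 29443550 on the plus strand in PHLDB1 cluster 16, which was not a listed site. It was methylated in 224 of 227 reads with sGC (98.7%) and 148 of 176 with saline (84.1%) in blood, and in 69 of 238 (29.0%) and 29 of 181 (16.0%) in hippocampus. The largest difference in blood was 26.0 points at 20879698 on the plus strand in the IRF2BPL main cluster, with 85 of 117 reads with sGC (72.6%) and 48 of 103 with saline (46.6%), where hippocampus had 9.77% and 5.65%. Differences below 0 also occurred in blood, at 6 cytosines of the PHLDB1 main cluster, 16 of that of IRF2BPL and 2 of that of MDGA1, and in clusters without listed sites. The site with the most reads of PHLDB1 cluster 10, 29430672 on the minus strand, was at 39.8% with sGC and 57.1% with saline in blood while hippocampus was at 35.9% and 35.8%. In MDGA1 cluster 1, 34677642 on the minus strand was methylated in 39 of 85 reads with sGC (45.9%) and 50 of 82 with saline in blood, whereas 34677534 on the plus strand was at 86.1% with sGC and 64.7% with saline.

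The sGC differences were set beside the tissue calls. At the 239 cytosines of the loci called higher in blood in both groups, the mean sGC difference was 7.76 points (SD 6.73) in hippocampus and 7.17 (SD 6.84) in blood, and sGC was above saline in both tissues at 182 (76.2%). At the 182 cytosines called in neither group, the means were 0.861 (SD 4.58) and -0.521 (SD 4.53), and sGC was above in both at 54 (29.7%). Over the whole table, the 303760 cytosines called higher in blood in both groups had mean sGC differences of 4.67 and 3.67 points, with 59.3% above in both tissues, and the 1925279 called in neither had 0.651 and 0.272, with 29.6%. At the 4 cytosines of the loci called lower in blood in both groups the mean sGC differences were -0.370 and -1.95 points, and at the 91419 such cytosines of all they were -2.45 and -3.17. At the 48 cytosines of the loci called in 1 group they were 4.44 and -0.460. The 2 measures share the same reads, so no test was made of their relation. The loci were chosen by the sGC contrast, so their larger sGC differences than in the whole table are not evidence about them. Cytosines called higher in blood in both groups made up 50.5% of the loci and 11.8% of the table.

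**Figure D4:**
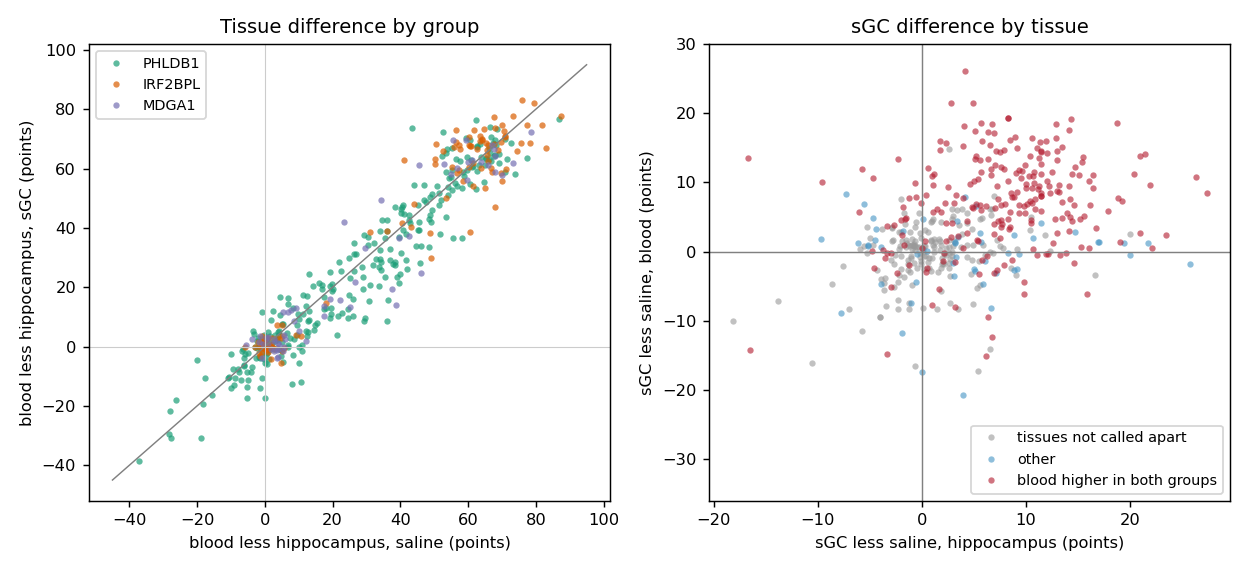
Left, the difference of blood less hippocampus in percentage points at each cytosine measured in both tissues, in the saline pools (horizontal) and the sGC pools (vertical), with the line of equality. Right, the difference of sGC less saline in percentage points in hippocampus (horizontal) and blood (vertical), where the 239 cytosines higher in blood in both groups lie mostly in the upper right and the 182 called in neither group lie around 0.

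The profiles of the groups were also compared from cytosine to cytosine. Across the 473 cytosines, whose levels differ between the loci, the correlation of sGC with saline methylation was r = 0.977 (Spearman's rho 0.971) in hippocampus and r = 0.981 (rho 0.771) in blood. Within single loci it was lower in places, with rho 0.625 at PHLDB1 and 0.536 at MDGA1 in blood, and in the MDGA1 main cluster r = 0.411 (rho 0.552) in hippocampus and r = 0.785 (rho 0.339) in blood. Between the tissues in the saline pools, over the 473 cytosines, it was r = 0.645 (rho 0.825). The sGC differences of the tissues were less alike, with r = 0.390 (rho 0.431) over all 473 cytosines, and with r = 0.393 over the 57 of the PHLDB1 main cluster, 0.136 over the 70 of IRF2BPL and 0.519 over the 20 of MDGA1. Spearman's rho for the latter was 0.0489. These values describe cytosines that share reads and pools and are not independent, and no p is given.

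The strands of a CpG were compared at 131 CpGs in hippocampus and 129 in blood that had both strands, by Fisher's exact test with adjustment over all such CpGs and a difference of at least 10 points. In the sGC hippocampus 1 CpG was called (1.66% of the table), in the saline hippocampus 1 (1.42%), in sGC blood 1 (1.12%) and in saline blood 0 (1.12%), with 8, 9, 5 and 5 at an unadjusted p below 0.05. The median absolute difference between strands was 2.79 and 2.89 points in hippocampus and 1.71 and 2.80 in blood, beside 2.48, 2.54, 2.02 and 2.41 over all CpGs. At PHLDB1 alone it was 4.24 and 4.26 in hippocampus and 1.71 and 3.27 in blood. In the same order it was 1.15, 1.48, 1.23 and 1.64 at IRF2BPL and 2.37, 2.55, 3.1 and 2.89 at MDGA1. Over the 3 loci together, the share of CpGs called was not above the background in any pool.

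The called CpGs lay outside the main clusters. At 29417580 in PHLDB1 cluster 2, 34 of 106 plus-strand reads (32.1%) and 51 of 79 minus-strand reads (64.6%) were methylated in the sGC hippocampus (adjusted p = 0.00137, Fisher's exact test). At 29443066 in PHLDB1 cluster 16, the saline hippocampus had 6 of 51 plus-strand reads (11.8%) and 70 of 172 minus-strand reads (40.7%) methylated (adjusted p = 0.00804, Fisher's exact test). This plus-strand cytosine also had the largest sGC difference of its cluster in hippocampus, 26.3 points, with 32 of 84 reads (38.1%) in the sGC pool. At 34677534 in MDGA1 cluster 1, the sGC blood had 93 of 108 plus-strand reads (86.1%) and 74 of 113 minus-strand reads (65.5%) methylated (adjusted p = 0.0429, Fisher's exact test). This last call was lost at an adjusted p below 0.01 and at a minimum of 20 reads. The same plus-strand cytosine had the largest sGC difference of its cluster in blood, 21.4 points.

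**Figure D5:**
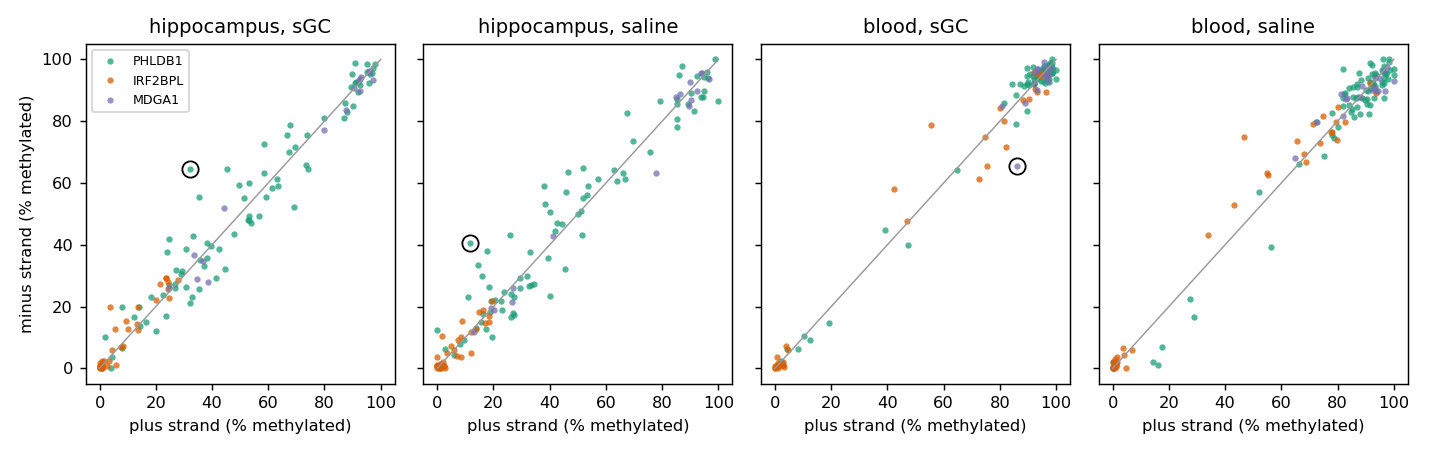
Methylation of the minus strand (vertical, percentage of reads) against the plus strand (horizontal) at each CpG of the 3 loci with both strands, 1 panel per pool, with the line of equality. Circles mark the CpGs called different between the strands, 1 each in the sGC hippocampus, the saline hippocampus and the sGC blood and 0 in the saline blood.

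At the ends of the loci, values just inside and just outside were as follows. The first PHLDB1 cytosine inside, 29416981, was at 87.1% and 78.3% in hippocampus and 97.4% and 100.0% in blood, and the nearest outside, 29416970, was at 85.9% and 81.4% in hippocampus and 96.6% and 96.6% in blood. The first cytosine inside the IRF2BPL locus, 20878302, was at 5.16% and 4.48% in hippocampus and 4.00% and 4.98% in blood, whereas the nearest listed before it, 20873455, was at 88.6% and 90.8% in hippocampus and 93.5% and 94.1% in blood. The first cytosine inside the MDGA1 locus, 34677386, was at 48.9% and 51.2% in hippocampus and 47.7% and 54.6% in blood, and the nearest outside, 34675935, was at 13.0% and 0.0% in hippocampus and 19.4% and 32.4% in blood. The last MDGA1 cytosine inside, 34680327, was at 97.0% and 91.1% in hippocampus, and the next outside, 34681361, was at 93.3% and 95.1%. The sites named for IRF2BPL span only 20879714 to 20879774 and those for MDGA1 only 34678613 to 34678682. Most of the main cluster at IRF2BPL and at MDGA1 therefore came in with the added 2 kb.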

How the data were processed

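RRBS of hippocampus and whole blood was measured in 4 groups of 6 samples. Adapters and poor bases were removed by the authors with Trim Galore and with a script from the maker of the library kit, and the reads were aligned with Bismark 0.16.0 to cavPor3, sorted with SAMtools 1.7 (versions from the submitters' processing notes) and passed to MethPipe. They deposited, for each tissue, unnormalized counts of methylated and of total reads at each cytosine, added up across the 6 animals per group, and a p-value adjusted for multiple testing (FDR) for their own sGC comparison, which was not used. The tables hold 2869370 cytosines in hippocampus and 2927801 in blood, each with at least 10 reads per pool, with medians of 93 (sGC) and 86 (saline) reads in hippocampus and 98 and 79 in blood.

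Percentages, differences and 95% Wilson intervals were computed from the counts. Fisher's exact tests were two-sided, with Benjamini-Hochberg adjustment over the whole table, and with thresholds of 0.05 for the adjusted p and of 5 points for sGC less saline and 10 points for tissues and strands. Clusters joined cytosines over gaps of at most 200 bp. The test treats reads as independent and compares pools, so its p-values are too small where animals differ. Most single cytosines named are listed sites or those with the most reads or the largest difference in a cluster or between strands. Those at the ends of the loci are named as well. The others, among them neighbors of these and sites of low level or small tissue difference, were chosen after their values were seen. The loci, lists and tests were chosen with earlier results of these data known. Alternatives changed the minimum reads, thresholds, strand handling, weighting, cluster gap and flanks, 1 at a time, and replaced the Fisher test by a chi-square scaled for genome-wide inflation, which changes test and scale together. The Fisher code was tested on simulated data. Sequences and paralogs were not analysed. Software was scipy 1.17.1, numpy 2.4.6 and numba 0.67.0 for tests, pandas 2.3.3 for tables and matplotlib 3.10.9 for plots, under Python 3.11.15.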

Additional observations from a re-analysis of the deposited data

How the results depend on the processing

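No paired analysis was possible because the tables hold sums over the animals of a group, and for the same reason no animal could be left out. Of the alternative values for the counts and cluster differences, 65 stayed within the set limits and 17 moved. A count stayed if its ratio to the main count was within a set limit, or if both were 0. A change of sign was possible only for the cluster differences, and 0 of them changed sign. For sGC against saline, adding the strands of a CpG gave 4 calls in hippocampus (0 otherwise). In blood, 10 of the 19 calls were left at an adjusted p below 0.01 and 0 with a chi-square test divided by its genome-wide inflation factor of 1.73 in place of the Fisher test. Without the 2 kb on each side, 144 tissue calls were left of 271 with saline and 141 of 263 with sGC, since fewer cytosines were counted, and 0 strand calls in the sGC hippocampus. The 1 strand call in the sGC blood became 0 at 20 or 50 reads, at 25 points, at an adjusted p below 0.01 and without the 2 kb. Among cluster differences, IRF2BPL in hippocampus (7.40 points) was 8.70 on the minus strand alone and 4.19 with gaps of 500 bp, and in blood (9.59) 7.82 with equal weight per cytosine and 6.84 with gaps of 500 bp. MDGA1 in hippocampus (10.3) was 6.90 with equal weight, and in blood (10.1) 5.82 with gaps of 500 bp. Depth limits what single cytosines can show, since the smallest number of reads was 10 in a pool.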
